A study of Mus musculus with 2 samples.

Results

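Accessible sites inside introns, far from promoters and found in both libraries of mouse cerebellum at postnatal day 4, are described here. The sites were chosen by where the deposited peaks lie and by their presence in both libraries: peaks of replicate 1 on chromosomes 1 to 19 were kept when they overlapped a replicate 2 peak by at least 1 bp, had every protein-coding start more than 1000 bp away, lay inside a protein-coding gene body and touched no exon of any gene. This left 8331 peaks, which are 13.9% of the 60053 replicate 1 peaks on those chromosomes and 13.5% of all 61896. They make up 35.4% of the 23542 shared peaks that lie away from promoters, next to 11755 intergenic and 3456 exonic peaks. A further 19221 shared peaks lie within 1000 bp of a start and are called promoter peaks below. Presence in both libraries selected these sites and is not a finding about them.

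The study measured DNase I accessibility in the cerebellum of male B6CASTF1/J mice, first-generation hybrids of a laboratory strain and a wild-derived strain, at an age of 4 days. Each of its 2 libraries names 3 males, and the labels call the libraries biological replicates 1 and 2, separate biosamples under the same donor identifier. They form 1 group with no treatment and no control, so each library's value is given and no test was made. The tissue was profiled in bulk, so more accessible cells and greater accessibility per cell cannot be told apart. As a check of the tissue, peaks within 500 bp of a start were found in both libraries at 4 of 5 granule lineage genes (not at Barhl1), at 3 of 3 Purkinje cell genes, at 2 of 2 astroglial genes and at 0 of 4 genes of liver and muscle. Peaks near starts are common, with 19221 shared ones, and the share over all coding genes is not given here. These few genes therefore do not establish which cell types are present.

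DNase I cuts DNA where nucleosomes are displaced, and an intron can hold such places because enhancers, silencers and boundary elements are often embedded in genes. The protein-coding gene around an intronic site, called the host gene below, is not necessarily the gene it acts on. Within an accessible site a bound protein can shield a few bases from the enzyme, and that protected gap is called a footprint. CTCF, a zinc-finger protein at chromatin loop anchors, leaves clear footprints in many tissues. In the young cerebellum, factors of the NFI, bHLH (E-box binding), ZIC and SOX families act in granule neurons and their progenitors, and RFX factors bind the X-box.

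The sequences below show what these sites look like at base level. For each of several motifs, the window printed reaches 75 bp to either side of the midpoint of the highest-ranking peak that holds it, where the rank is the mean over libraries of the percentile of the peak value. They are the RefSeq reference sequence of GRCm38 (mm10), plus strand, and capitals mark the motif match.
Camta1, intron 9, chr4:151141666-151141816, CTCF core: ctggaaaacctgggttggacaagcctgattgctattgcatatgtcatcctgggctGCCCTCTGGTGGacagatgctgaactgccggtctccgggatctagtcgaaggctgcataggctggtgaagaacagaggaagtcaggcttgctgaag
Ephb2, intron 1, chr4:136816826-136816976, full NFI site: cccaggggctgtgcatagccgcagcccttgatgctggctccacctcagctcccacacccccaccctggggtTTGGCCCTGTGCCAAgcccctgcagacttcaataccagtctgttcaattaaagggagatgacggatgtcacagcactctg
Itpkb, intron 2, chr1:180365286-180365436, RFX X-box: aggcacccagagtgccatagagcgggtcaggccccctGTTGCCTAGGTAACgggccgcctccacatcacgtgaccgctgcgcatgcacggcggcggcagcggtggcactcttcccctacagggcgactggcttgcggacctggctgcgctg
Phc2, intron 6, chr4:128711486-128711636, SOX: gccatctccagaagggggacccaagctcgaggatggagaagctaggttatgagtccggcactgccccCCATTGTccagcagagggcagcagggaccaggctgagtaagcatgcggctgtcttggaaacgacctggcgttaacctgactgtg
Cdkn1a, intron 1, chr17:29095526-29095676, AP-1: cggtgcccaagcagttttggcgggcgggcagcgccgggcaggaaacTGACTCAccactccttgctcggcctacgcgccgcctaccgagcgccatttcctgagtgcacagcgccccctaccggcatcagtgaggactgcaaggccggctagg
The Camta1 window is also the highest-ranking one with the E-box CAGATG. A match is a run of letters on either strand and was not taken as a binding site. In Camta1, which encodes a calmodulin-binding transcription activator, the match overlapped a footprint in both libraries, and so did the match in Ephb2, an ephrin receptor gene. In Phc2, which encodes a Polycomb protein, the SOX letters overlapped a footprint in both libraries too. A CTCF core on the other strand adjoins them with 0 bases between and overlapped one in both libraries as well. Over all sites, SOX matches overlapped a footprint in 24.6% and 31.5% of cases, near the 22.6% and 29.1% of all 7-bp stretches of the windows. CTCF core matches did so in 91.6% and 94.6%, against 27.9% and 35.3% of all 12-bp stretches. In Itpkb, an inositol kinase gene, the X-box overlapped a footprint in replicate 2 alone. In Cdkn1a, the gene of a cell cycle inhibitor, the AP-1 letters overlapped none in either library, although that peak held 3 footprints in replicate 1 and 4 in replicate 2.

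The peak value is the authors' normalised signal of a peak, and the depth in reads behind it is unknown. The Camta1 peak stood at 6.46 in replicate 1 and 12.8 in replicate 2, the Cdkn1a peak at 4.61 and 8.52, and the Phc2 peak at 3.61 and 7.11. The Itpkb peak had 2.62 and 5.86, and the Ephb2 peak 1.19 and 1.71. Replicate 2 was the higher library at each of them.

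Over the 8331 sites, replicate 2 gave the higher median, but not among the weakest. The median was 0.929 in replicate 1, with a range of 0.0968 to 17.5, and 1.404 in replicate 2, with a range of 0.0665 to 19.99. The mean of the library medians was 1.17 ± 0.336 (SD, n = 2). The median log2 difference, replicate 2 minus replicate 1, was 0.48 with an SD of 0.70 across peaks, and 6309 sites (75.7%) were higher in replicate 2. In the weakest quintile of the sites by mean rank the median log2 difference was -0.03, with medians of 0.561 and 0.552, and in the strongest it was 0.65, with medians of 2.09 and 3.37. The overall offset was larger at promoter peaks, where it was 0.82, and near the same at intergenic ones, where it was 0.51. Replicate 2 also has the longer deposited list, with 131518 peaks, and the part of depth in the offset was not tested. The replicate 2 value of a site is the highest among the replicate 2 peaks that overlap it, and neighbouring sites can share such a peak. The part of this pairing in the offset was not tested either.

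**Figure D1:**
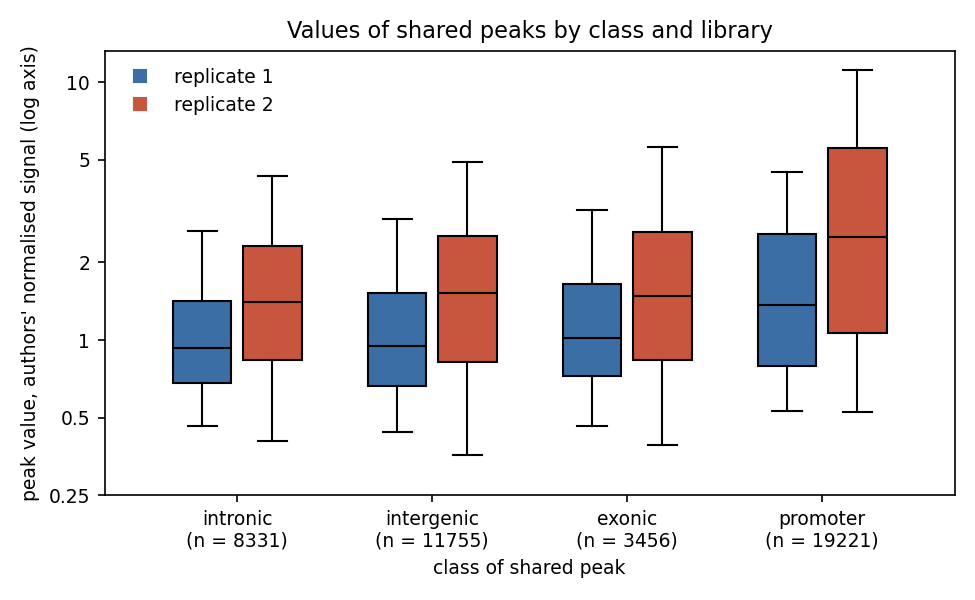
Peak values (log axis) of the shared peaks by class and library. Boxes span the quartiles with the median as a line and whiskers reach the 5th and 95th percentiles. The intronic boxes, with medians of 0.929 and 1.404, sit close to the intergenic ones and below the promoter ones, with medians of 1.37 and 2.52.

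The intronic sites were weaker than promoter peaks and close to intergenic peaks. Promoter peaks had medians of 1.37 and 2.52 in replicates 1 and 2, intergenic peaks 0.948 and 1.52, and exonic peaks 1.02 and 1.48. The intronic sites were also narrower than promoter peaks, with a median width of 160 bp against 220 bp. They were spread a little more densely than intergenic sites: 9.68 per Mb of eligible intron against 8.59 per Mb of eligible intergenic sequence, a ratio of 1.13. By chromosome the density ran from 7.45 per Mb on chromosome 3 to 13.4 per Mb on chromosome 11.

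Peaks at the edge of the rule were weaker than the rest where the overlap was small. The 57 sites that overlapped the replicate 2 peak by only 1 to 20 bp had medians of 0.542 and 0.546, and the 45 peaks just outside, with a gap of up to 20 bp, had a median of 0.535 in replicate 1. Near the distance limit, 225 sites at 1001 to 1250 bp from a start had medians of 0.871 and 1.39, and 322 intronic peaks at 751 to 1000 bp, left out by the rule, had 0.768 and 1.09. Of all 13395 replicate 1 peaks in such intronic positions, 62.2% were shared, and the 5064 others had a median value of 0.258.

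The libraries ranked the sites alike in part. Across sites, the Pearson correlation of log10 values was 0.738 and Spearman's rho 0.719, given as a description because the sites of a library share its depth and all were selected for presence in both. Between libraries, 76.7% of the sites lay within a factor of 2. Another 1779 sites (21.4%) were over 2-fold higher in replicate 2 and 165 (1.98%) over 2-fold higher in replicate 1. Support by the authors' error rate differed more between the libraries. The lowest false discovery rate of cutting inside a site, as the authors gave it, had a median of 0.000409 in replicate 1 and 1.12e-11 in replicate 2.

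**Figure D2:**
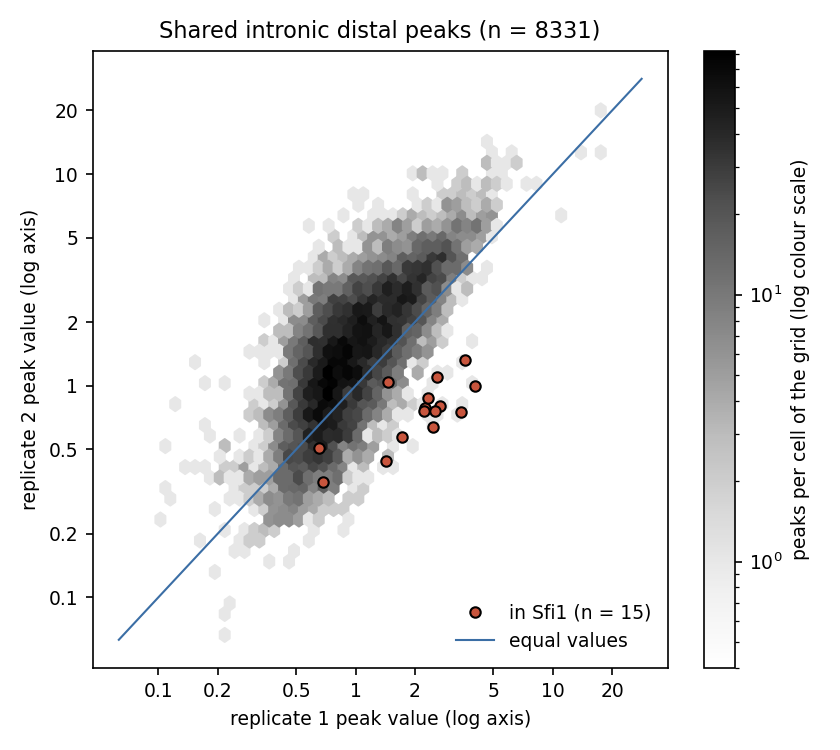
Value of each of the 8331 shared intronic distal peaks in replicate 2 against replicate 1 (both axes logarithmic). Grey shows the number of peaks per grid cell, the line marks equal values and the red points are the 15 sites in Sfi1. Most of the cloud lies above the line and all Sfi1 points lie below it.

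Sfi1 led the 165 sites that were over 2-fold higher in replicate 1. This gene, which encodes a centrin-binding protein of the centrosome, held 12 of them, Tmem267, a membrane protein gene, held 4, and no other gene held more than 2. The median values of the 165 were 0.864 in replicate 1 and 0.366 in replicate 2, and 7.27% of them held the CTCF core, against 27.2% of the sites within a factor of 2. In 6.06% of their windows at least 50% of the bases were soft-masked repeats, against 3.27% for the sites within a factor of 2. The 1779 sites that were higher in replicate 2 had medians of 0.852 and 2.32, and their windows held 8.06% of repeat bases on average, against 9.88% for the 165.

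Single sites reached larger differences between the libraries. In Ldb2, which encodes a LIM-domain binding protein, a site in intron 3 had 0.561 in replicate 1 and 5.89 in replicate 2. In Cacna1g, a T-type calcium channel gene, a site in intron 1 had 0.955 and 7.84. A site in intron 21 of the myosin gene Myo1d had 1.06 and 8.02 and its window held an RFX X-box, and a site in Phactr3 had 0.148 and 1.23. These 4 were picked for the largest log2 difference in favour of replicate 2, and the next 4 for the largest in favour of replicate 1. In the other direction stood a site in intron 22 of Sfi1 with 3.41 and 0.752, a site in intron 1 of Tmem267 with 3.45 and 0.778, a site in the overlapping genes Gm4181 and Gm5622 with 0.974 and 0.226, and a site in intron 6 of Sfi1 with 4.05 and 0.998. Their windows were 76.8%, 54.3%, 33.1% and 31.8% repeat sequence, against a mean of 8.32% over all sites. The windows in Phactr3, Cacna1g, Ldb2 and Myo1d, the sites higher in replicate 2, were 27.2%, 17.2%, 13.2% and 0% repeat sequence. The part of repeats in the differences was not tested.

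Of 20807 protein-coding genes on chromosomes 1 to 19, 4289 hosted at least 1 of the sites, which is the background rate of 20.6 percent for every gene count below. The 8331 sites lie in 1 host each for 8096 of them and in overlapping hosts for 235. Most hosts held a single site (2530 genes, 59.0%), 1445 held 2 to 4, 273 held 5 to 9 and 41 held 10 or more. Host genes were long, with a median body of 70.2 kb against 12.6 kb for the other genes. Among genes shorter than 5 kb, 0.662% were hosts, and among genes longer than 500 kb, 89.9%. Per Mb of intron the number was highest in genes of 5 to 10 kb, at 14.2 sites, and fell with length from there to 6.44 in the longest class. In the shortest class it was 12.9.

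**Figure D3:**
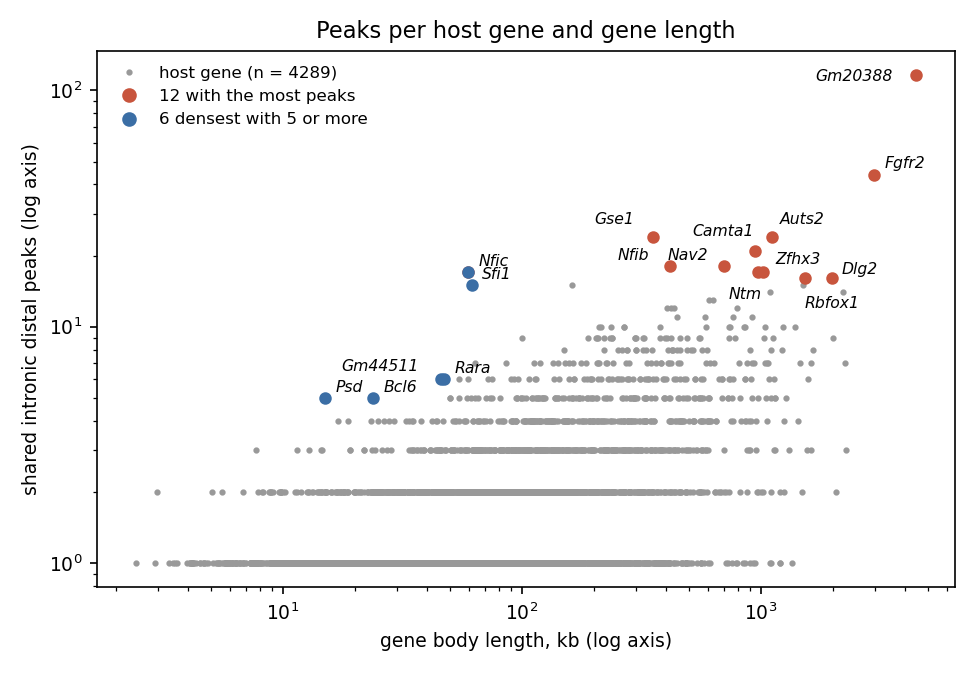
Number of shared intronic distal peaks in each of the 4289 host genes against the length of the gene body (both axes logarithmic). Red marks the 12 genes with the most peaks and blue the 6 with the most per 100 kb among genes with 5 or more. Nfic belongs to both and is blue. Gm20388 and Fgfr2 stand at the far right, while Nfic and Sfi1 hold 17 and 15 peaks in gene bodies of about 60 kb.

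The longest host list belonged to annotations that cover their neighbours. Gm20388, a predicted gene drawn over 4434.9 kb of chromosome 8, held 116 sites but also 71 other coding genes, and 67 of its sites had no other host. Fgfr2, a fibroblast growth factor receptor gene, is annotated over 2960.9 kb with 29 coding genes inside, and 19 of its 44 sites had no other host. Gse1 lies within Gm20388, so its 24 sites are counted for both. When genes that hold 5 or more whole coding genes were not counted as hosts, an alternative chosen after seeing the data, Gm20388 and Fgfr2 lost all their sites, while 8228 sites and 4263 hosts were left.

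The other leading hosts held 16 to 24 sites each. Auts2, which encodes a protein of a Polycomb complex in the developing brain, held 24 sites over 1106 kb, with values of 0.413 to 1.26 in replicate 1 and 0.399 to 3.08 in replicate 2. None of the 24 held the CTCF core, and 17 of them were higher in replicate 2, as were 75.7% of all the sites. Camta1 held 21 sites, with medians of 1.07 and 1.20, and 8 of them held the CTCF core. Nav2, a neuron navigator gene, held 18 sites with medians of 1.05 and 1.30, all 18 with a footprint in replicate 2. Ntm, an adhesion molecule gene, held 17, Zfhx3, a zinc-finger homeobox gene, 17, Dlg2, the gene of a postsynaptic scaffold, 16, and Rbfox1, a neuronal splicing factor gene, 16. For Dlg2 that is 0.811 per 100 kb of gene body, and its 16 sites compare with 12.02 at the density of its length class.

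Nfib and Nfic, genes of transcription factors that bind the NFI motif, were both among these hosts. The 18 sites in Nfib had values of 0.477 to 3.26 in replicate 1 and 0.386 to 5.20 in replicate 2. Of these sites 15 were higher in replicate 2, as were 75.7% of all the sites. Its strongest site, 192409 bp into the gene, stood at 3.26 and 5.20 with 4 footprints in replicate 1 and 6 in replicate 2. Nfic held 17 sites in 59.5 kb, a density of 28.6 per 100 kb, and 13 of them lay in its first intron. Its site 22564 bp from the start had 2.21 and 6.61, the highest of the gene in replicate 2, while the site 30184 bp from the start had 0.626 and 0.399 with 5 footprints in replicate 1 and 0 in replicate 2. The Nfic sites were low as a group, with medians of 0.626 and 0.539, and 9 of 17 held a footprint in replicate 2.

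The densest hosts differed in strength. Psd, a guanine nucleotide exchange factor gene, had 5 weak sites in 15.1 kb, with values of 0.258 to 0.426 in replicate 1 and 0.299 to 0.432 in replicate 2. Sfi1 had 15 sites with medians of 2.33 and 0.758, and all 15 were higher in replicate 1, with a median log2 difference of -1.54. Repeat bases filled 30.2% of the Sfi1 windows on average. Bcl6, a transcriptional repressor gene, had 5 sites, all in its first intron between 3330 and 6381 bp from the start. They stood at 0.832, 2.10, 2.95, 0.697 and 0.774 in replicate 1 and at 2.75, 3.59, 3.95, 1.14 and 1.00 in replicate 2, so replicate 2 was higher at all 5. Rara, the gene of a retinoic acid receptor, had 6 sites of 0.935 to 1.65 in replicate 1 and 1.75 to 2.33 in replicate 2. Replicate 2 was the higher library at all 6, and over all the sites it was higher at 75.7%. The median log2 difference was 0.54 in Rara, against 0.48 over all the sites. Gm44511, a predicted gene, had 6 sites with medians of 1.77 and 3.10.

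The granule cell lineage gives the main neurons of the cerebellum. Of 20 listed genes of granule neuron differentiation, 12 were hosts (60.0%), against 52.4% in genes of the same length classes and 20.6% in all coding genes. They held 55 sites, 1.73 times the 31.8 that the densities of their length classes give. Nfib alone had 18, and without it the other 37 sites are 1.31 times their figure. In Nfia, a related factor gene, the site in intron 2 at 96307 bp from the start stood at 2.86 and 9.65, and the other 3 sites at 0.587 to 0.923 and 0.512 to 1.13. Cntn2, an axonal adhesion gene, held none. Of 17 genes of granule progenitors and the hedgehog response, which drives progenitor division, 8 were hosts (47.1%, against 27.9% at like length) with 13 sites, 1.44 times their length-class figure. Ptch1, the hedgehog receptor gene, had 3 sites, at 0.632, 1.75 and 0.3999 in replicate 1 and at 1.22, 1.95 and 0.506 in replicate 2. Without Ptch1 the other 10 sites of this list are 1.18 times their figure. Gli2 and Gli3, genes of hedgehog effectors, held 1 and 2. The Gli2 site stood at 0.626 and 1.30, and the Gli3 sites had medians of 0.545 and 1.10.

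The lists of other cerebellar neurons lay on both sides of the length-class figures. Of 21 Purkinje cell genes, 14 were hosts (66.7%, against 51.2% at like length), with 50 sites against 43.6 from the length classes. Rora, a nuclear receptor gene needed by Purkinje cells, and Dab1, a reelin pathway adaptor gene, held 9 each. Itpr1, a calcium release channel gene, held 1, at 1.94 and 3.75, and Foxp2, a forkhead factor gene, held none. Of 14 GABAergic interneuron genes, 5 were hosts (35.7%, against 28.9% at like length). Their 16 sites are 1.57 times the length-class figure, or 1.07 times without Nxph1. Gad1, the gene of a GABA-synthesising enzyme, had 2, at 2.01 and 1.22 in replicate 1 and at 6.32 and 2.12 in replicate 2. Nxph1, a neurexophilin gene, had 8 weak sites with medians of 0.465 and 0.462, and Pax2 and Kit had none. Of 12 genes listed for the cerebellar nuclei and unipolar brush cells, 5 were hosts (41.7%, against 35.8% at like length). They held 9 sites, 0.888 times the length-class figure. Meis2 and Lmx1a held 2 each and Eomes none.

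Glial and vascular lists followed. Of 18 genes of astrocytes and Bergmann glia, 10 were hosts (55.6%, against 30.2% at like length), with 22 sites, 1.49 times their length-class figure. Aldh1l1, an astrocyte enzyme gene, had 6, with values of 0.671 to 3.54 in replicate 1 and 0.446 to 4.14 in replicate 2, and 3 of them were higher in replicate 1. Without Aldh1l1 the other 16 sites of this list are 1.17 times their figure. Slc1a3, a glutamate transporter gene of Bergmann glia, had 3 sites, Gdf10, a secreted factor gene, 2, and Sox9, which is 5.54 kb long, 1. Of 15 oligodendrocyte lineage genes 8 were hosts (53.3%, against 29.97% at like length), with 16 sites, 1.65 times their figure, or 1.39 times without Mbp. They include Mbp, the myelin basic protein gene, with 4 sites, whereas Olig2, Pdgfra and Sox10 held none. Of 15 microglial genes 6 were hosts (40%, against 27.8% at like length). They held 10 sites, 1.39 times the length-class figure, or 0.844 times without Cx3cr1. Cx3cr1, which is annotated over 168.3 kb, had 5 sites, and Csf1r and P2ry12 had none. Of 18 endothelial and mural genes 6 were hosts (33.3%, against 42.1% at like length), with 3 in Ets1, 2 in Flt1 and none in Erg or Cldn5.

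Lists of long neuronal genes lay on both sides of their length-class figures. Of 19 synaptic adhesion genes 17 were hosts (89.5%, against 76.5% at like length). Their 73 sites, however, are 0.702 times the 104.1 given by their length classes. Tenm2 held 10, Nrxn3 7 and Nlgn1 4. The 16 genes listed for potassium channels, Kcnip4 with 3 sites among them, held 26 sites, 0.587 times the length-class figure. There were 5 in Kcnma1, 4 in Kcnq3 and none in Kcnd2. The 24 axon guidance genes held 80 sites (1.23 times, or 1.14 times without Slit3). There were 10 in Slit3, 8 in Plxna4, 6 in Robo1 and 2 in Dcc, a netrin receptor gene of 1097.4 kb. The 16 genes listed for neuronal splicing and RNA-binding proteins held 51 (1.34 times, or 1.23 times without Rbfox1). Of the 51, 10 lay in Msi2, 9 in Rbfox3 and 6 in Celf4.

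Lists of transcription factors and chromatin proteins came next. The 24 genes listed as developmental transcription factors with long introns held 89 sites, 1.399 times the length-class figure. Of these genes 21 were hosts (87.5%, against 73.2% at like length). Besides Zfhx3, they include Zbtb20 with 6 and Tcf7l1 with 3. The 20 chromatin regulator genes held 53 (1.61 times), of which Auts2 had 24. Without Auts2 the other 29 sites are 1.10 times their figure. Chd7, a remodeller gene, had 2 and Kdm4c none. None of 18 housekeeping genes was a host, against 7.72% at like length and a length-class figure of 1.42 sites. Of 20 cell cycle genes 2 were hosts (10%, against 12.02% at like length), among them Bub1b with 1 site. Their 2 sites compare with a length-class figure of 2.77. With figures this small, neither list can show a lack of sites. Of 17 liver genes 4 were hosts (23.5%, against 15.4% at like length), with 5 sites, 1.41 times the length-class figure, and of 15 muscle genes 4 (26.7%, against 25.2%), with 6 sites, 0.97 times. They include Hnf4a, the gene of a liver nuclear receptor, with 2 sites at 2.38 and 3.42 in replicate 1 and 1.66 and 7.07 in replicate 2, and Cacna1s, a muscle calcium channel gene, with 3. The liver figure is close to those of the granule progenitor and developmental transcription factor lists. Without their leading genes the figures were 1.02 for liver (Hnf4a left out), 1.18 for granule progenitors (Ptch1) and 1.26 for developmental transcription factors (Zfhx3). The lists were compiled with earlier results of these data known, so their counts are a description.

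Within genes, the sites lay in all parts. Of the 8331, 7580 (91.0%) lay in an intron of the longest coding transcript, and of these 2077 (27.4%) lay in the first intron, 1108 (14.6%) in the second and 801 (10.6%) in the third. First introns make up 25.6% of the intronic sequence, and the density there was 10 per Mb against 9.09 per Mb in later introns. Values were lower in first introns, with medians of 0.884 and 1.26, than in later ones, with 0.942 and 1.44. The median distance from the host's start was 48.9 kb, and 32.2% lay over 100 kb away. Neighbouring sites of a gene were 21.4 kb apart in the median, and 432 of 4211 neighbouring pairs (10.3%) were under 1 kb apart. Starts of noncoding transcripts lay within 1000 bp of 611 sites (7.33%), whose medians were 0.981 and 1.58.

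The strongest sites lay in genes of varied function. The highest by rank lay in intron 1 of Il31ra, an interleukin receptor gene, at chr13:112578161-112578320, with 17.2 in replicate 1 and 19.99 in replicate 2 and with 5 and 6 footprints. A site in intron 3 of Jarid2, a Polycomb cofactor gene, had 17.5 and 12.8, and a site in intron 19 of Zc3h7a, a zinc-finger gene, 14.3 and 12, so both were higher in replicate 1. The Zc3h7a site lay 1 bp from an exon and 58 bp from the nearest start of any annotated transcript. The remaining sites among the strongest 8 were higher in replicate 2: Camta1 (above), Mxi1, a MYC antagonist gene, with 6.61 and 10.96, an intron of Gm20388 with 6.75 and 10.9, Dlg4, a postsynaptic scaffold gene, with 4.81 and 13.5, and Zfp516, a zinc-finger gene, with 5.73 and 11.3. All 8 are also in the stricter deposited peak lists of both libraries, as are 50.04% of all the sites. That share goes with the value by which the 8 were chosen: it was 5.64% in the weakest quintile and 98.8% in the strongest.

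Most of the sites held footprints. In replicate 1, 7522 sites (90.3%, exact Clopper-Pearson 95% interval 89.6 to 90.9%) overlapped at least 1, and in replicate 2, 7645 (91.8%, 91.2 to 92.4%). The intervals treat the sites as independent and cover counting error only, so they give no error for the difference between the libraries. In both libraries 84.9% held one, and in neither 2.82%. The mean number per site was 1.82 in replicate 1 and 2.31 in replicate 2, and 56.2% and 70.2% held 2 or more. Footprints had a median width of 10 bp in replicate 1 and 11 bp in replicate 2, and 69.1% of those in replicate 1 overlapped one in replicate 2, and 4.58% had the same ends. Of those in replicate 2, 53.4% overlapped one in replicate 1 and 3.61% had the same ends.

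**Figure D4:**
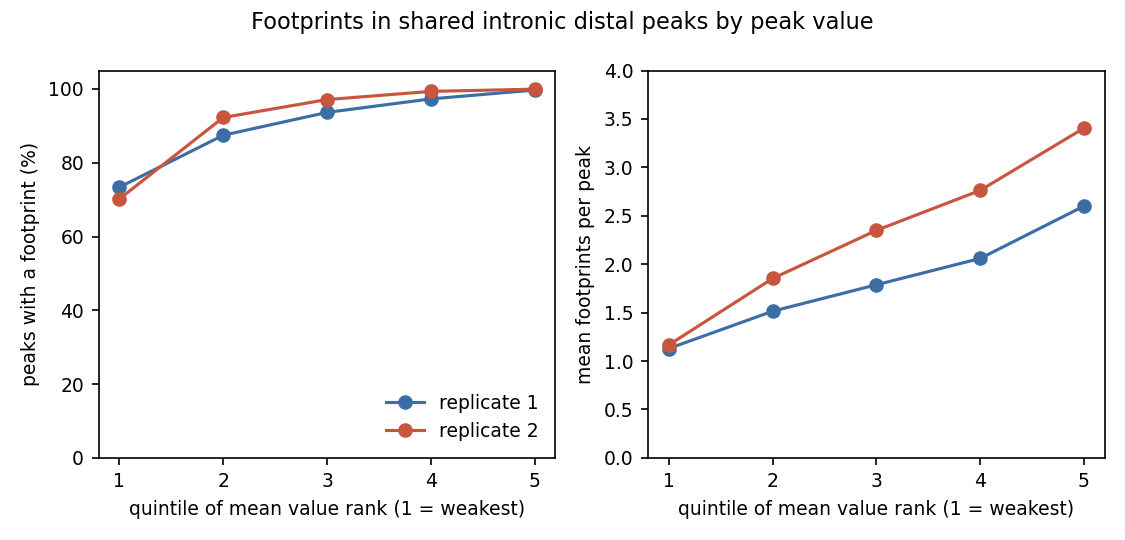
Percent of the shared intronic distal peaks with a footprint (left) and mean footprints per peak (right) by quintile of the mean value rank, for replicate 1 (blue) and replicate 2 (red). The share goes from 73.4% and 70.2% in the weakest quintile to 99.7% and 99.9% in the strongest.

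The number of footprints went with the peak value. In the weakest quintile of the sites, 73.4% had a footprint in replicate 1 and 70.2% in replicate 2, with means of 1.13 and 1.17 per site. In the strongest quintile, 99.7% and 99.9% did, with means of 2.60 and 3.41. Sites without a footprint in either library had medians of 0.490 and 0.492 and a median width of 83 bp. Set against other classes of like value, that is in the middle quintile of the intronic ranks, 93.6% and 97.1% of the intronic sites held a footprint, 94.3% and 96.2% of intergenic peaks, and 78.6% and 71.6% of promoter peaks. Those promoter peaks were wider, with a median of 240 bp against 160 bp.

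The sites with the most footprints were wide ones. A site of 700 bp in intron 1 of Peg3, an imprinted zinc-finger gene, held 8 footprints in replicate 1 and 11 in replicate 2, with values of 1.68 and 5.94. A site in Timp2, a metalloproteinase inhibitor gene, held 7 and 10, a site in Zfp827 4 and 12, and a site in Sin3a, the gene of a corepressor scaffold, 5 and 10. Replicate 2 held more at each of these 4. The Zfp827 and Sin3a sites lay 1644 and 1521 bp from the start of their hosts, near the inner limit of the rule.

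Among the 26 motifs with any match in the flanks, the CTCF core had the largest ratio of sites to flanks. CCANNAGNNGGC, read on both strands, was in 2131 of the 8331 windows (25.6%), against 1.33% of the 16662 windows of the same length 1000 bp to either side, a ratio of 19.2. Intergenic sites held it as often, at 25.6%, and promoter peaks at 3.19%. Of its 2161 matches, 91.6% overlapped a footprint in replicate 1 and 94.6% in replicate 2, whereas 27.9% and 35.3% of all 12-bp stretches of the windows did. Sites with the core were stronger, with medians of 1.23 and 1.85 against 0.852 and 1.27 without it, and the share with the core was 11.04% in the weakest quintile and 43.0% in the strongest. They lay less often in first introns, 19.7% against 30.1% of sites without the core, and spread over 1777 host genes.

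**Figure D5:**
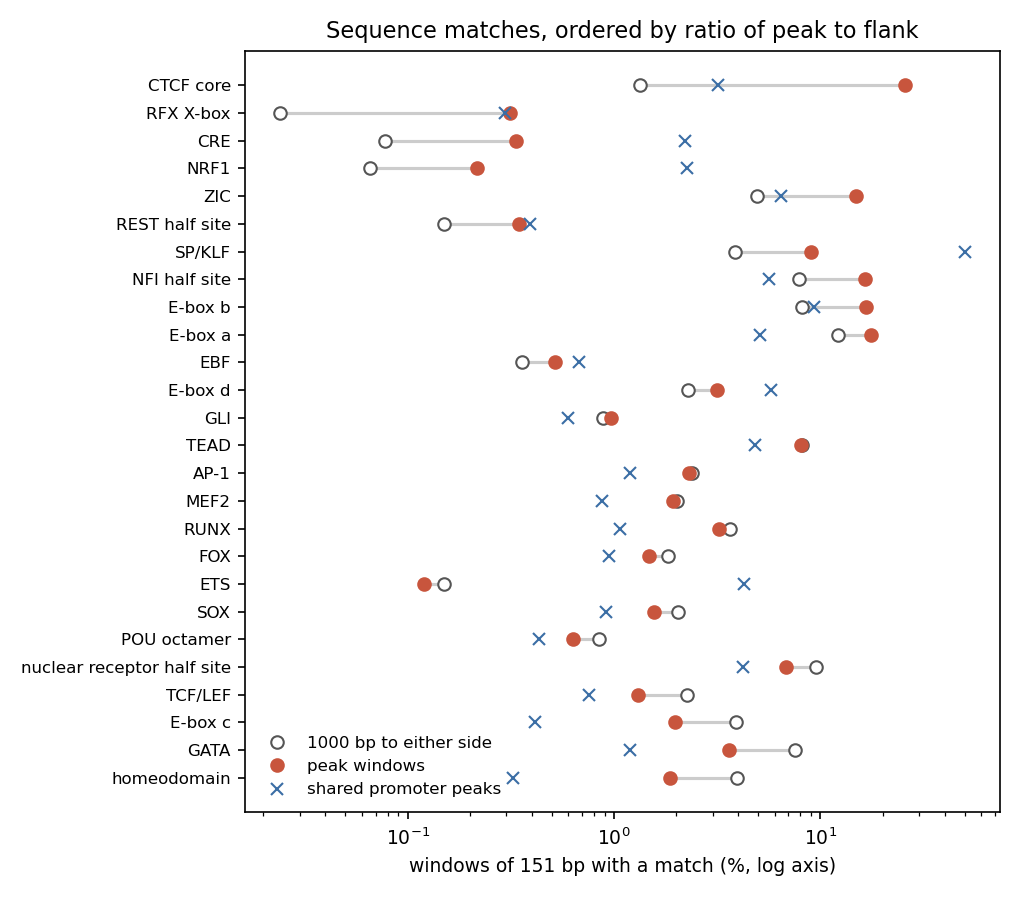
Percent of windows with a match (log axis) for 26 motifs, in the shared intronic distal peaks (red), in windows 1000 bp to either side (open) and in shared promoter peaks (crosses). Windows reach 75 bp to either side of the peak midpoint or flank point. E-box a has GA as its central pair, b GC, c TA and d CG. The CTCF core has the widest gap to the flanks, from 1.33% to 25.6%, and the homeodomain and GATA letters lie below the flanks.

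Motifs of factors of granule neurons were in fewer sites. The ZIC letters CCTGCTG were in 14.8% of the windows and 4.93% of the flanks, and 22.8% of their matches overlapped a CTCF core. In windows without that core, the ratio to flanks was 2.67. The short NFI site TTGGCA was in 16.4% against 7.89%. In contrast to CTCF its share was lower in stronger sites, at 19.6% in the weakest quintile and 12.2% in the strongest. The E-boxes CAGATG and CAGCTG fell likewise, from 19.3% to 15.3% and from 18.6% to 13.1%. The ZIC letters and the SP/KLF letters GGGCGG rose, from 12.8% to 17.8% and from 8.76% to 11.1%. The part of the CTCF core in these changes was not tested. The full NFI site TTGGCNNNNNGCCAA, as in the Ephb2 window, was in 17 windows and in none of the flanks, where a count of 0 allows a share of up to 0.018%. Of these 17 matches, 82.4% overlapped a footprint in replicate 2, against 38.9% of all 15-bp stretches. The E-box CAGCTG was in 16.6% against 8.10%, CAGATG in 17.6% against 12.2%, and CATATG in 1.97% against 3.91%.

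Rare motifs and motifs at or under the flank level completed the list. The RFX X-box GTTGCCNNGGNAAC, as in the Itpkb window, was in 26 windows (0.312%, against 0.024% of flanks), and these sites had medians of 0.932 in replicate 1 and 3.00 in replicate 2. Of its 27 matches, 48.1% overlapped a footprint in replicate 1 and 85.2% in replicate 2, against 30.0% and 37.7% of all 14-bp stretches. The cAMP response element TGACGTCA was in 28 windows. AP-1 (TGACTCA) stood at 2.32% against 2.39%, SOX (ACAATGG) at 1.56% against 2.05%, the GATA factor letters AGATAA at 3.59% against 7.54% and the homeodomain letters TAATTA at 1.86% against 3.94%. The SP/KLF letters GGGCGG were in 8.96% of the windows, 3.87% of the flanks and 50.4% of promoter peaks.

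Base composition differed between these windows in the same comparisons. The windows had a median GC content of 54.3%, against 47.7% in the flanks and 66.9% in promoter peaks, and held 3.27 CpG on average against 2.10 and 13.4. Soft-masked repeats filled 8.32% of their bases and 21.1% of the flank bases. Median GC content was 54.0% to 54.3% in every quintile of the peak value. The part of base composition in the ratios to flanks was not tested.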

How the data were processed

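Accessibility was measured by DNase-seq in 2 libraries. Per the description files deposited with them, the authors called peaks and footprints on each library's own alignments to mm10. The peak value is the deposited signal (column 7), which the authors normalised for depth. The aligner, the callers and this factor were not given in the sources used here, and depth in reads is unknown. The FDR files hold the authors' false discovery rate (q-value) per interval, all under 0.05. The value column of the footprint files is 0.01 throughout, so their deposited positions alone were used. Column 10 of the peak files is 75 on every line, so windows were centred on peak midpoints instead of summits. The larger deposited list of each library was the main one.

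Genes were those of GENCODE M21 on GRCm38, and sequence was the RefSeq GRCm38 genome. Python 3.11.15, pandas 2.3.3, scipy 1.17.1 and pysam 0.24.0 were used, and the counting was tested on simulated data. A site in several hosts was placed in the shortest one. Length-class figures multiply a gene's eligible intronic sequence by the density of sites in its class of 8 by body length. Footprints and motif matches counted with an overlap of 1 bp.

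The sites, the 19 gene lists and the 27 motifs were chosen with earlier results of these data known. Genes named are the 12 hosts with the most sites, the 6 densest with 5 or more, the first 3 of each list and the one with the most, of which a few are not reported here. Sites named are the 8 strongest by mean rank, the 4 most different in each direction and the 4 with the most footprints. For 6 motifs the sequence of the highest-ranking site not on chromosome 18 was printed. Alternatives were another peak list, overlap, start distance, set of starts, exon rule, number of peaks, footprint rule, host rule and lists without their leading gene (both added after seeing the data) and each library alone.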

Additional observations from a re-analysis of the deposited data

How the results depend on the processing

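No paired analysis was possible because both libraries belong to 1 group. With the stricter peak lists, 4240 sites were left, 33.5% of the shared distal peaks, with medians of 1.39 and 2.12 in replicates 1 and 2, a median log2 difference of 0.53 and footprints in 97.0% and 97.4%. With a reciprocal overlap of 50%, footprints were in 95.02% and 96.2%. At over 500 bp from a start they were in 89.0% and 88.5%, and at over 5000 bp in 92.5% in replicate 2, where the intronic share was 34.3%. The intronic share was 37.1% with the starts of every transcript barred and 36.1% with coding exons alone barred. With the peak lists cut to the same number of strongest peaks, the median log2 difference was 0.61 and footprints were in 92.9% and 96.1%. With the footprint centre in the peak, 90.9% held one in replicate 2. Using 1 library alone, the number of peaks was 13395 to 38025, the number of hosts 4972 to 8238 and the intronic share 35.3% to 39.1%. The median value was 0.677 in replicate 1 alone and 0.579 in replicate 2 alone, the reverse of the order at the shared sites. The share with a footprint was 71.8% in replicate 1 alone and 80.2% in replicate 2 alone. In these settings the median log2 difference stayed above 0 wherever both libraries were used. Of the 12 leading hosts, 8 were also among the 12 leading hosts with the stricter lists, 7 with replicate 2 alone and 2 with replicate 1 alone. With the stricter lists the sites fell from 24 to 8 in Auts2, from 24 to 10 in Gse1, from 18 to 5 in Nfib, from 17 to 6 in Ntm and from 17 to 9 in Nfic. At over 5000 bp from a start Nfic had 4. The number of libraries, 2 in 1 group, and the unknown depth in reads limit every comparison of values, and a difference between libraries cannot be given an error of its own.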
